A study of Homo sapiens with 8 samples.

Results

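The 40 gene symbols examined here encode the folding machinery of the endoplasmic reticulum (ER) and the unfolded protein response. A member was the locus of the deposited expression table that carries one of these symbols, taking for each symbol the locus with the highest mean over the 8 libraries, where that mean was at least 1. This gave 36 members out of 32087 loci. HSP90B1, TXNDC5, EDEM2 and DERL3 were not matched and are not analysed here. Differences were tested for 8599 named genes whose mean reached 5, which included 35 members, and ERN1, with a mean of 4.33, was left out of the tests. By role, the tested members were 10 chaperones and cochaperones, 3 proteins of the lectin cycle, 7 disulfide enzymes, 4 stress sensors or their transcription factors, 8 degradation factors and 3 translocon subunits.

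RNA was sequenced from MEL202, a human line of uveal melanoma cells with a mutant allele of the splicing factor gene SF3B1 beside a wildtype one. The 4 lines were parental MEL202, a line in which mutant SF3B1 was knocked out, a line in which mutant SF3B1 carried a degron (the mutant degron line) and a line in which wildtype SF3B1 carried it (the wildtype degron line). The degron is a destabilising domain, and Shld is the ligand that shields it, so the tagged protein is degraded when Shld is withdrawn. Each line was sequenced once with and once without Shld, and all 8 libraries are of MEL202 origin. The labels of the 3 derived lines give 2 days. The table's own column names differ from the labels for the knockout line: they describe a knockout that also has the degron on wildtype SF3B1, with 4 days without Shld, so what withdrawal does to SF3B1 protein in that line is uncertain. The parental column without Shld also names 4 days. The labels name each line in a field called clone, with 1 entry per genotype, so the genotype and the clone cannot be told apart.

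Secretory and membrane proteins enter the ER through the SEC61 channel and fold there with the help of the chaperone BiP, the calnexin and calreticulin lectins and the protein disulfide isomerases. Proteins that fail to fold are passed back to the cytosol and degraded by the proteasome. When unfolded proteins accumulate, the sensors IRE1 (gene ERN1), PERK (EIF2AK3) and ATF6 start the unfolded protein response, in which the transcription factors XBP1 and cleaved ATF6 raise chaperone and degradation genes, and PERK acts through translation and the factors ATF4 and CHOP (DDIT3). Melanocytic cells make and sort large amounts of glycosylated membrane proteins for their pigment granules.

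Both ATF6 and XBP1 bind short elements near the start of their target genes. The ER stress response element (ERSE, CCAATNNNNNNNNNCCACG), its shorter relative ERSE-II (ATTGGNCCACG) and the core of the unfolded protein response element (UPRE, TGACGTGG) were searched on both strands in the 300 bases from 250 before to 50 after each gene's start in RefSeq (GRCh38.p14). Of the 36 members, 34 had such a sequence, with 41 start regions among them. ERSE was found in 7 members (20.6%) against 25 of 27305 genes in all (0.09%), ERSE-II in 3 members (8.8%) against 19 genes (0.07%) and the UPRE core in 2 members (5.9%) against 253 genes (0.93%). With overlaps counted once, 11 members (32.4%) and 295 genes (1.08%) held at least 1 of the 3. The UPRE core was found in DNAJC10 and in HYOU1, where it overlaps an ERSE-II. The ERSE and ERSE-II matches are shown as the letters through which ATF6 and XBP1 are known to act. The list holds known targets of these factors, so the higher share among the members is a description and no independent finding. Each line runs 5′ to 3′ along the gene's strand, with the matched element in capitals, which is the reverse complement where it begins with CGTGG.
HSPA5: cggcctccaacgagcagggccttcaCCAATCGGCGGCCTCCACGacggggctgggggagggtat
HYOU1: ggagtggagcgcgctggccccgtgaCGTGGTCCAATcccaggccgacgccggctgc
HYOU1: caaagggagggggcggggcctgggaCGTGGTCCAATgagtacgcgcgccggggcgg
SDF2L1: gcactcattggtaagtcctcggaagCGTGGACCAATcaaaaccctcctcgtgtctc
CRELD2: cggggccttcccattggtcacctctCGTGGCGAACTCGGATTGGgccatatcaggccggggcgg
CALR: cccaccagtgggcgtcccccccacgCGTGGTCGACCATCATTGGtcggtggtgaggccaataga
PDIA6: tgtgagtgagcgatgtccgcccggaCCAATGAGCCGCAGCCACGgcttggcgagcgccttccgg
ERO1LB: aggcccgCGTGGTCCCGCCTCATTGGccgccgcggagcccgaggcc
XBP1: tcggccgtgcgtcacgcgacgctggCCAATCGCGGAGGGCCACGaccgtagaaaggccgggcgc
HERPUD1: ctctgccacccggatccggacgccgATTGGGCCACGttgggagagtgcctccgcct
On GRCh38.p14 the HSPA5 stretch lies at chr9:125241371-125241434 on the minus strand, the HYOU1 stretches at chr11:119057360-119057415 and chr11:119057254-119057309 on the minus strand and the SDF2L1 stretch at chr22:21642089-21642144 on the plus strand. CRELD2 lies at chr22:49918529-49918592 (plus), CALR at chr19:12938359-12938422 (plus) and PDIA6 at chr2:10812833-10812896 (minus). The ERO1LB stretch lies at chr1:236282163-236282208 (minus), that of XBP1 at chr22:28800583-28800646 (minus) and that of HERPUD1 at chr16:56932000-56932055 (plus). Each printed match lies upstream of the start whose region was searched, and the PDIA6 match lies downstream of another annotated start of that gene. In GENCODE 29, 12 bases of the PDIA6 stretch, 15 of the XBP1 stretch and 8 of the HERPUD1 stretch fall in an annotated exon, and none of the others do. The CANX match is not printed, because it lies within an annotated exon: CANX has 4 start regions, and the match is upstream of 2 of these starts, across another (bases -9 to 10) and downstream of the first. A match is a description of the letters, not a measured binding site.

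Values are FPKM (fragment counts divided by transcript length and library size) rescaled by the authors so that the 75th percentile of all loci is 10 in each library, written as with and then without Shld. SF3B1 stood at 266 and 239.8 in parental cells. Its values were 158 and 138 after knockout of the mutant allele, 188 and 201 with the degron on wildtype SF3B1 and 248 and 252 with it on mutant SF3B1. The depth is unknown, and comparing low values gave the other 7 libraries 1.05 to 1.49 times the fragments behind 1 unit in the parental library with Shld. Ribosomal protein genes took 17.5% to 21.0% of the summed values in parental cells, 16.6% to 18.9% in the mutant-knockout and mutant degron lines and 11.8% to 12.1% in the wildtype degron line. Of 10 melanocyte markers 9 were found, with sums of 6550 to 15592. Endothelial and epithelial markers summed to at most 0.08 and 0.74, and fibroblast markers, of which 3 of 6 were found, to 1.64 to 29.9. Of 3 leukocyte markers 2 were found, and their sum of 639 to 834 was nearly all CD68. In bulk RNA, fewer cells with a transcript and less transcript per cell cannot be told apart.

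The ER folding genes as a group took the smallest share of the summed values in parental cells with Shld. Their 36 values summed to 0.427% of all values in that library and to 0.558% in parental cells without Shld. The share was 0.577% and 0.603% in the mutant-knockout line, 0.736% and 0.675% in the mutant degron line and 0.76% and 0.806% in the wildtype degron line. The total of all values differed too, from 961994 in parental cells with Shld to 762679 in the wildtype degron line with Shld. The shares depend on it. Undivided, the 36 values summed to 4103.9 and 4886.3 in parental cells and 4926.5 and 4934.5 in the mutant-knockout line. They summed to 5997.7 and 5581.5 in the mutant degron line and 5799.4 and 6168.7 in the wildtype degron line. Parental cells with Shld were the lowest of the 8 libraries for 25 of 35 members (71.4%), against 20% of all genes tested. The highest library was the wildtype degron line without Shld for 15 members (42.9% against 19.7% of all genes) and the mutant degron line with Shld for 11 (31.4% against 7.9%). The plot of members by library shows this as a blue first column, broken by red or white cells for DNAJB9, MANF, ERO1LB, XBP1, HERPUD1, DERL2, SEC61B and SEC61G.

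**Figure D1:**
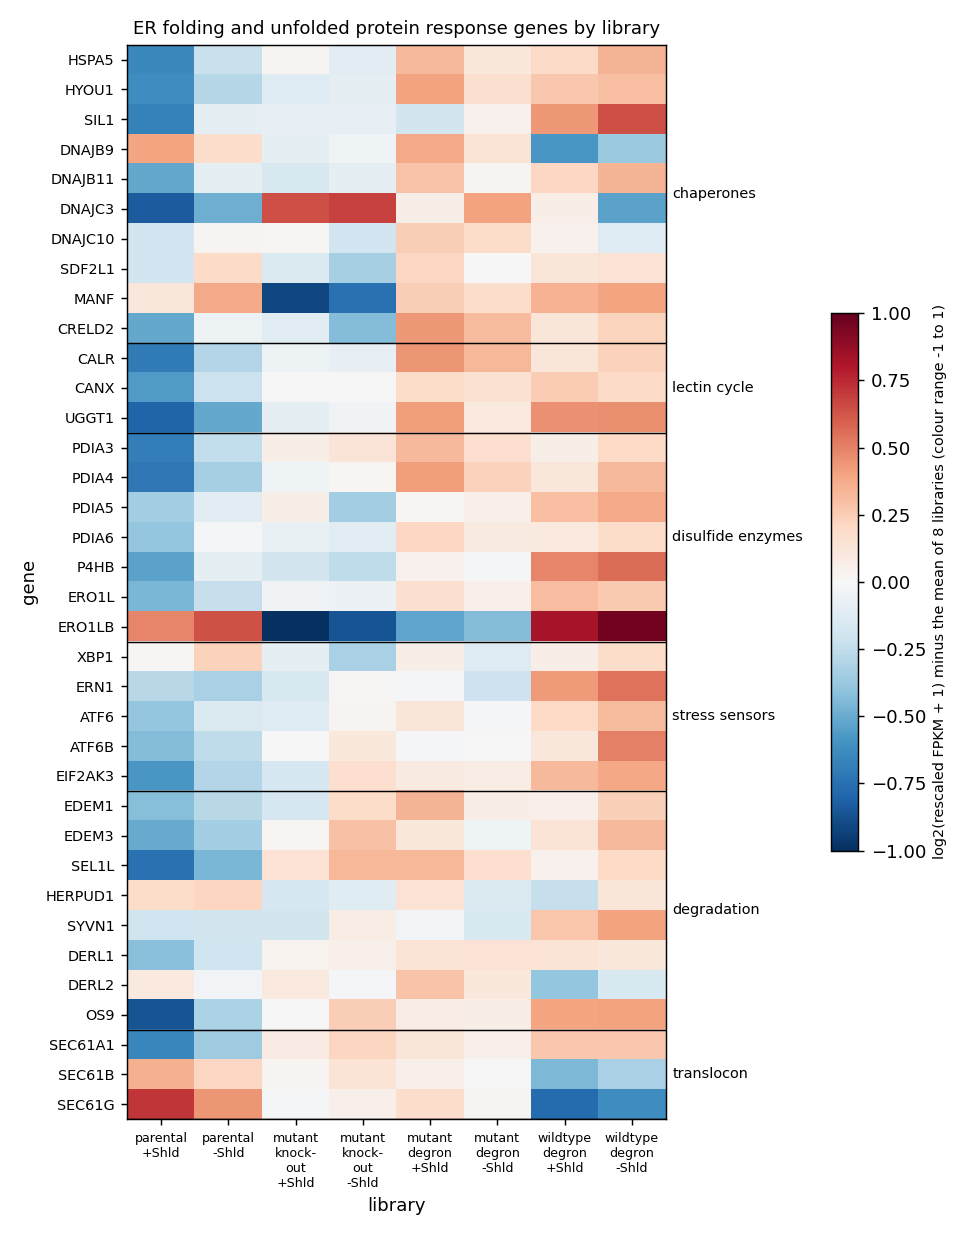
Each row is 1 of 36 member genes, each column 1 library, and the colour gives log2(rescaled FPKM + 1) less the gene's mean over the 8 libraries, with colours limited to -1 and 1 and genes ordered by role. Parental cells with Shld are the lowest library for 25 of the 35 members tested, and ERO1LB runs from dark blue in the mutant-knockout line to dark red in the wildtype degron line.

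Each line was set against parental cells in 1 additive model of line and Shld over all 8 libraries (limma, on log2(value + 1), Benjamini-Hochberg adjusted over 8599 genes, threshold 0.05). ER folding genes were more often higher than lower in the derived lines. In the mutant-knockout line 14 of 35 members were higher and 3 lower, where 18.7% and 21.4% of all genes were higher and lower. The median difference of the members was +0.30 on the log2 scale against -0.03 over all genes. In the mutant degron line 19 were higher and 2 lower, against 12.4% and 14.4% of all genes, with medians of +0.45 and -0.04. In the wildtype degron line 25 were higher and 3 lower, against 23.7% and 24.5% of all genes, with medians of +0.57 and +0.01. Scaling the libraries to equal medians gave 13 higher and 5 lower in the mutant-knockout line.

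The 3 comparisons share the parental libraries. Higher in each of them were 13 members (37.1%, against 5.18% of all genes): ATF6B, CALR, CANX, DERL1, EDEM3, EIF2AK3, ERO1L, OS9, PDIA3, PDIA4, SEC61A1, SEL1L and UGGT1. SEC61G was lower in each. DERL2, DNAJC10, HERPUD1, SDF2L1 and XBP1 passed the threshold in none. The counts depended on the parental library with Shld: without it, 5 members were higher and 5 lower in the mutant-knockout line, 7 and 1 in the mutant degron line and 16 and 3 in the wildtype degron line, and the member medians were +0.14, +0.31 and +0.42. The calls over all genes also dropped in these fits, to 10.1% higher and 12.3% lower, 4.81% and 5.5%, and 11.7% and 13.1% in the 3 lines. Without the mutant degron library with Shld, 6 members were higher and 1 lower in that line, where 5.58% and 6.01% of all genes were. With each of the 8 libraries left out in turn, 8 of 17 calls held in every fit in the mutant-knockout line, 6 of 21 in the mutant degron line and 18 of 28 in the wildtype degron line.

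**Figure D2:**
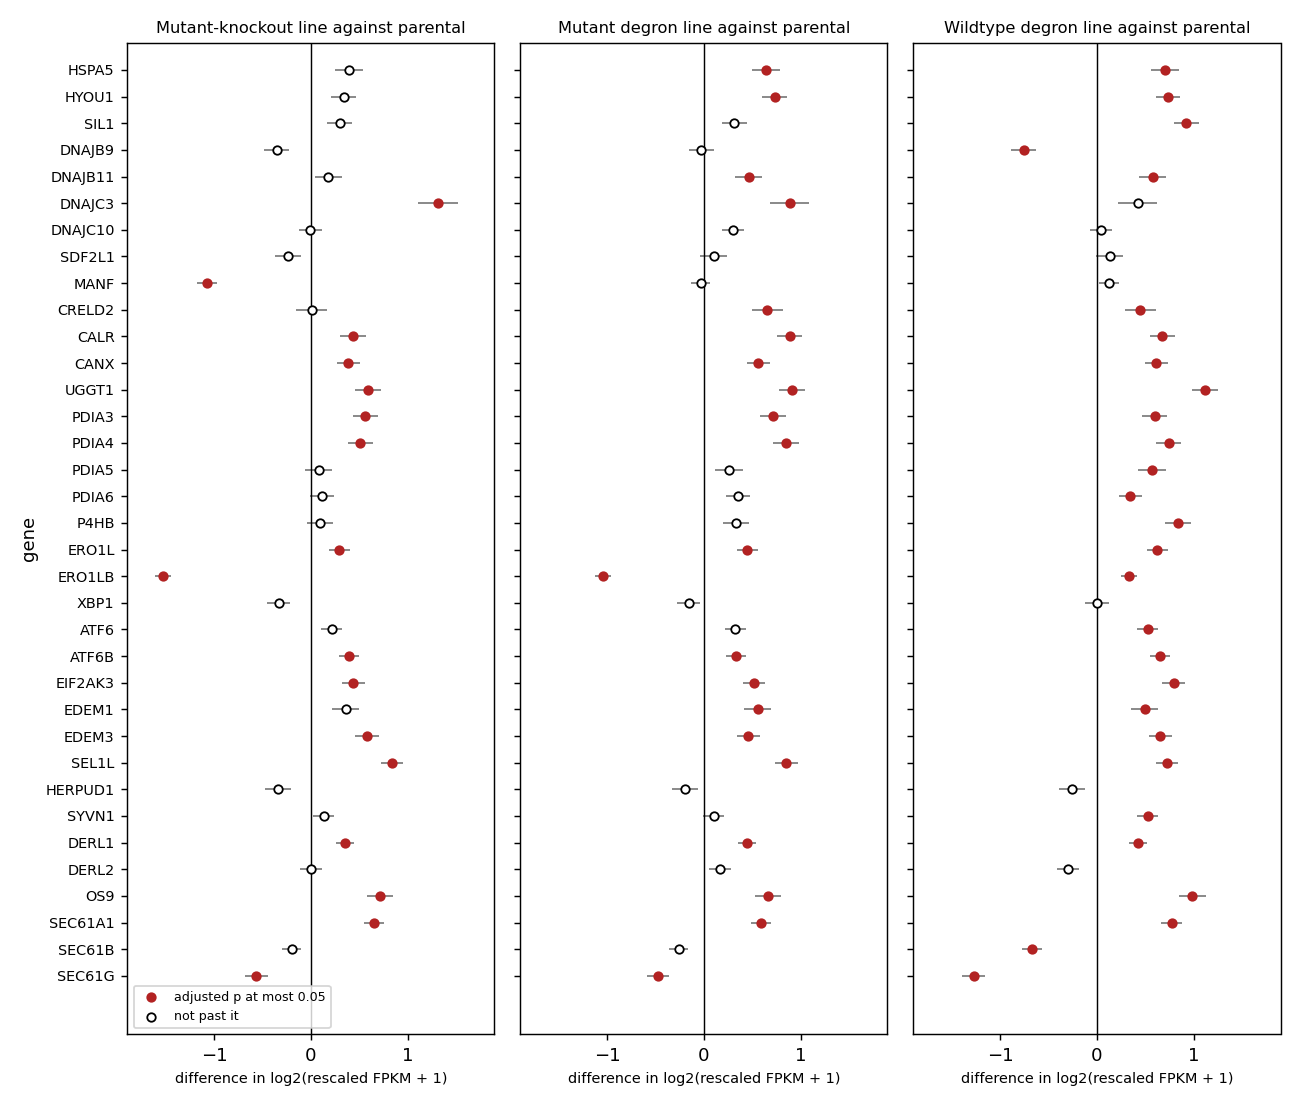
Points give the difference in log2(rescaled FPKM + 1) from parental cells for 35 member genes in 3 lines, bars the standard error of the model, and red points pass an adjusted p of 0.05. Most points lie right of 0, while SEC61G lies left of 0 in all 3 panels. Higher members number 14 in the mutant-knockout line, 19 in the mutant degron line and 25 in the wildtype degron line. Of all genes, 18.7%, 12.4% and 23.7% were higher in these lines.

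Among the chaperones, HSPA5, which encodes BiP, the main ER chaperone of the HSP70 family, stood at 160.1 and 214 in parental cells, 256 and 232 in the mutant-knockout line, 314 and 269 in the mutant degron line and 287 and 317 in the wildtype degron line. Both parental libraries were below the other 6. BiP transcripts were higher in the mutant degron line (+0.65 ± 0.15, the model's standard error; adjusted p = 0.012, limma) and in the wildtype degron line (+0.70 ± 0.15, adjusted p = 0.0044), and in the mutant-knockout line the difference was +0.39 ± 0.15 (adjusted p = 0.058). HYOU1, a large HSP70-type chaperone that also exchanges BiP's nucleotide, stood at 23.6 and 29.9 in parental cells, 33.6 and 34.2 in the mutant-knockout line, 48.9 and 41.1 in the mutant degron line and 44.5 and 45.5 in the wildtype degron line. It was higher in both degron lines, by +0.73 ± 0.13 (mutant) and +0.74 ± 0.13 (wildtype). SIL1, another nucleotide exchange factor of BiP, stood at 22.9 and 34.8 in parental cells, 34.99 and 34.9 in the mutant-knockout line, 32.5 and 38.4 in the mutant degron line and 50.6 and 58.7 in the wildtype degron line. It passed the threshold in the wildtype degron line (+0.92 ± 0.13, adjusted p = 0.00085).

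The J-domain cochaperones, which deliver clients to BiP and start its ATPase, did not follow 1 pattern. DNAJB11 stood at 37.1 and 49.9 in parental cells, 47.8 and 50.1 in the mutant-knockout line, 65.5 and 54.4 in the mutant degron line and 61.7 and 67.97 in the wildtype degron line, and was higher in both degron lines (+0.46 and +0.58). DNAJC3, also known as an inhibitor of PERK, stood at 5.49 and 7.23 in parental cells, 16.98 and 17.5 in the mutant-knockout line, 10.997 and 14.2 in the mutant degron line and 11.03 and 6.95 in the wildtype degron line. It had the largest rise of any member in the mutant-knockout line (+1.32 ± 0.21, adjusted p = 0.0012), was higher in the mutant degron line (+0.89 ± 0.21), and in the wildtype degron line only the library with Shld stood above both parental values. DNAJB9, a target of IRE1 and XBP1 that holds IRE1 in check, stood at 20.96 and 17.9 in parental cells, 14.6 and 15.3 in the mutant-knockout line, 20.8 and 17.4 in the mutant degron line and 10.2 and 11.98 in the wildtype degron line. It was lower in the wildtype degron line (-0.76 ± 0.13, adjusted p = 0.0017), where both libraries were below all others. DNAJC10, a J-domain reductase, ranged from 23.1 to 31.7 and passed the threshold nowhere.

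Of the 3 small secreted or luminal factors, MANF, a stress-induced protein that binds BiP, stood at 47.1 and 56.9 in parental cells, 22.7 and 25.5 in the mutant-knockout line, 51.8 and 49.2 in the mutant degron line and 55.5 and 57.3 in the wildtype degron line. Both mutant-knockout libraries lay below all others, a difference from parental cells of -1.07 ± 0.10 (adjusted p = 7e-05). CRELD2, a stress-induced luminal protein, stood at 27.4 and 38.1 in parental cells, 36.5 and 28.99 in the mutant-knockout line, 53.7 and 49.5 in the mutant degron line and 42.9 and 46.2 in the wildtype degron line, and was higher in the mutant (+0.66) and wildtype (+0.45) degron lines. SDF2L1, which keeps J-domain proteins and clients soluble, ranged from 35.2 to 51.4 with no call. Over the chaperones, calls for HYOU1 in the mutant degron line, for DNAJB9, HSPA5, HYOU1 and SIL1 in the wildtype degron line and for DNAJC3 and MANF in the mutant-knockout line held with each library left out. The others were lost without 1 or more libraries, at adjusted p of 0.052 to 0.44, and without the parental library with Shld these were CRELD2, DNAJB11, DNAJC3 and HSPA5 in the mutant degron line and CRELD2 and DNAJB11 in the wildtype degron line.

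The lectin cycle, in which glycoproteins are held until folded, was higher in all 3 lines for each of its 3 members. CALR, the soluble lectin calreticulin, stood at 579 and 767 in parental cells, 912 and 891 in the mutant-knockout line, 1279 and 1187 in the mutant degron line and 1026 and 1106 in the wildtype degron line. Its 2 highest libraries were those of the mutant degron line, with a difference of +0.89 ± 0.13 (adjusted p = 0.0017), against +0.44 ± 0.13 in the mutant-knockout line and +0.68 ± 0.13 in the wildtype degron line. CANX, its membrane-bound partner calnexin, stood at 357 and 458 in parental cells, 530.2 and 530.2 in the mutant-knockout line, 605 and 591 in the mutant degron line and 634 and 607 in the wildtype degron line, with differences of +0.39, +0.56 and +0.62 in the 3 lines. UGGT1, the glucosyltransferase that recognises misfolded glycoproteins and returns them to the lectins, stood at 10.6 and 13.2 in parental cells, 17.9 and 18.7 in the mutant-knockout line, 25.95 and 20.6 in the mutant degron line and 26.7 and 26.8 in the wildtype degron line. Both parental libraries were the lowest and both wildtype degron libraries the highest, a difference of +1.12 ± 0.14 (adjusted p = 0.00062). In the mutant-knockout line all 3 calls were lost without the parental library with Shld (adjusted p of 0.092 to 0.18). CALR and UGGT1 held with each library left out in both degron lines, and CANX lost its call in the mutant degron line without the parental library with Shld (adjusted p = 0.05) or its own (adjusted p = 0.092), and in the wildtype degron line without its own library with Shld (adjusted p = 0.053).

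The protein disulfide isomerases form and rearrange disulfide bonds. PDIA3, which works with the lectins on glycoproteins, stood at 166 and 226 in parental cells, 280.0 and 294 in the mutant-knockout line, 337 and 302 in the mutant degron line and 279 and 309 in the wildtype degron line. PDIA4 stood at 102 and 133 in parental cells, 163 and 170.2 in the mutant-knockout line, 225 and 197 in the mutant degron line and 182 and 210.3 in the wildtype degron line. Both were higher in all 3 lines, PDIA3 by +0.56, +0.72 and +0.60 and PDIA4 by +0.51, +0.85 and +0.74 in the mutant-knockout line and the 2 degron lines (mutant, then wildtype). P4HB, the founding isomerase and a subunit of collagen prolyl hydroxylase, stood at 621 and 846 in parental cells, 794 and 756 in the mutant-knockout line, 930.1 and 890.3 in the mutant degron line and 1263 and 1328 in the wildtype degron line. PDIA5 stood at 17.3 and 20.6 in parental cells, 23.2 and 17.3 in the mutant-knockout line, 22.6 and 23.1 in the mutant degron line and 27.7 and 29.4 in the wildtype degron line. PDIA6, which reduces active IRE1, stood at 268 and 346 in parental cells, 334 and 327 in the mutant-knockout line, 406 and 373 in the mutant degron line and 376 and 399 in the wildtype degron line. These 3 passed the threshold in the wildtype degron line, where P4HB differed by +0.84 ± 0.14 (adjusted p = 0.0015), PDIA5 by +0.57 ± 0.14 and PDIA6 by +0.35 ± 0.12.

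The oxidases ERO1L and ERO1LB, now named ERO1A and ERO1B, reoxidise the isomerases. ERO1L stood at 15.3 and 17.9 in parental cells, 20.7 and 20.4 in the mutant-knockout line, 23.9 and 22.1 in the mutant degron line and 26.5 and 25.7 in the wildtype degron line. It was higher in all 3 lines, by +0.30 ± 0.11 at an adjusted p of 0.05 in the mutant-knockout line, +0.45 ± 0.11 in the mutant degron line and +0.63 ± 0.11 in the wildtype degron line. ERO1LB stood at 135 and 149.8 in parental cells, 44.9 and 52.5 in the mutant-knockout line, 66.3 and 70.7 in the mutant degron line and 171 and 188 in the wildtype degron line. It had the widest spread of differences among the members: it was lower in the mutant-knockout line (-1.53 ± 0.09, adjusted p = 2.6e-06) and the mutant degron line (-1.04 ± 0.09, adjusted p = 5.7e-05) and higher in the wildtype degron line (+0.34 ± 0.09, adjusted p = 0.011). Of 9 melanocyte markers, 8 were lower in the mutant-knockout line, 3 lower in the mutant degron line and 4 higher and 1 lower in the wildtype degron line. The shares of all genes were 21.4% lower in the mutant-knockout line, 14.4% lower in the mutant degron line and 23.7% higher and 24.5% lower in the wildtype degron line. They summed to 12038 and 13043 in parental cells, 7296 and 6550 in the mutant-knockout line, 7660 and 9262 in the mutant degron line and 15592 and 14343 in the wildtype degron line. Their part in the ERO1LB result was not tested. Calls for ERO1LB in the mutant-knockout and mutant degron lines, PDIA4 in both degron lines and ERO1L and P4HB in the wildtype degron line held with each library left out. Without the parental library with Shld, the calls of ERO1L, PDIA3 and PDIA4 in the mutant-knockout line, ERO1L in the mutant degron line and ERO1LB, PDIA3, PDIA5 and PDIA6 in the wildtype degron line were lost (adjusted p of 0.056 to 0.36), and the ERO1L call in the mutant-knockout line was lost without any 1 of 7 libraries.

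Of the sensors, EIF2AK3, which encodes PERK, stood at 7.63 and 9.54 in parental cells, 10.5 and 13.5 in the mutant-knockout line, 12.7 and 12.6 in the mutant degron line and 15.2 and 15.8 in the wildtype degron line. It was higher in the mutant-knockout line (+0.44 ± 0.12) and in both degron lines (mutant +0.52 ± 0.12, wildtype +0.79 ± 0.12). ATF6B, the paralogue of ATF6, stood at 50.5 and 57.3 in parental cells, 68.2 and 73.8 in the mutant-knockout line, 67.4 and 68.6 in the mutant degron line and 74.1 and 97.8 in the wildtype degron line, with differences of +0.39, +0.33 and +0.65. Its highest value was that of the wildtype degron line without Shld. ATF6, a membrane-bound transcription factor released by cleavage, stood at 14.8 and 17.7 in parental cells, 17.9 and 20.1 in the mutant-knockout line, 21.5 and 19.6 in the mutant degron line and 22.8 and 24.8 in the wildtype degron line, and was higher in the wildtype degron line (+0.53 ± 0.11). That call was lost without the parental library with Shld (adjusted p = 0.056) and after correction for transcript length (adjusted p = 0.19). ERN1, which encodes IRE1, was not tested, and stood at 3.29 and 3.17 in parental cells, 3.66 and 4.25 in the mutant-knockout line, 4.17 and 3.50 in the mutant degron line and 6.002 and 6.57 in the wildtype degron line. Its 2 highest values were those of the wildtype degron line. XBP1, whose messenger RNA is spliced by IRE1, stood at 92.3 and 107 in parental cells, 85.4 and 72.7 in the mutant-knockout line, 95.01 and 83.6 in the mutant degron line and 95.5 and 104 in the wildtype degron line. XBP1 did not pass the threshold in the mutant-knockout line (-0.33 ± 0.12, adjusted p = 0.056), the mutant degron line (-0.16 ± 0.12) or the wildtype degron line (+0.00 ± 0.12), and gene-level values do not tell its spliced from its unspliced form. Without the parental library with Shld, XBP1 was lower in the mutant-knockout line (-0.49, adjusted p = 0.041), as was the chaperone factor SDF2L1 (-0.49, adjusted p = 0.027). The ATF6B and EIF2AK3 calls in the mutant-knockout and mutant degron lines were lost without the parental library with Shld (adjusted p of 0.082 to 0.17), and those in the wildtype degron line held with each library left out.

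In the degradation branch, SEL1L, the scaffold of the HRD1 ubiquitin ligase, stood at 12.6 and 15.6 in parental cells, 24.2 and 27.7 in the mutant-knockout line, 27.7 and 24.6 in the mutant degron line and 22.6 and 25.2 in the wildtype degron line. All 6 libraries of derived lines lay above both parental ones, with differences of +0.84 ± 0.12, +0.85 ± 0.12 and +0.73 ± 0.12. SEL1L was the 1 member whose call held in all 3 lines with each library left out. OS9, the lectin that presents misfolded glycoproteins to SEL1L, stood at 52.8 and 77.97 in parental cells, 97.2 and 115 in the mutant-knockout line, 102 and 102 in the mutant degron line and 128 and 129 in the wildtype degron line. Its differences were +0.71 ± 0.14 in the mutant-knockout line, +0.66 ± 0.14 in the mutant degron line and +0.99 ± 0.14 in the wildtype degron line. SYVN1, the HRD1 ligase itself, stood at 20.6 and 20.8 in parental cells, 20.8 and 25.1 in the mutant-knockout line, 23.3 and 21.3 in the mutant degron line and 29.004 and 31.7 in the wildtype degron line, and was higher in the wildtype degron line (+0.53 ± 0.11).

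EDEM1 and EDEM3, mannosidases that mark glycoproteins for disposal, were higher in 2 and 3 lines. EDEM1 stood at 11.7 and 13.1 in parental cells, 14.2 and 18.4 in the mutant-knockout line, 20.6 and 16.9 in the mutant degron line and 16.7 and 19.1 in the wildtype degron line. EDEM3 stood at 9.44 and 10.7 in parental cells, 13.996 and 17.2 in the mutant-knockout line, 15.02 and 13.4 in the mutant degron line and 15.3 and 17.6 in the wildtype degron line. EDEM1 differed by +0.56 in the mutant degron line and +0.50 in the wildtype degron line, and EDEM3 by +0.58, +0.46 and +0.65 in the 3 lines. The derlins take part in passing substrates through the membrane. DERL1 stood at 50.4 and 58.7 in parental cells, 69.2 and 69.9 in the mutant-knockout line, 74.3 and 74.5 in the mutant degron line and 74.1 and 72.97 in the wildtype degron line, and was higher in all 3 lines (+0.35, +0.45 and +0.43). DERL2 ranged from 26.8 to 43.4 with no call, and its 2 lowest values were those of the wildtype degron line. HERPUD1, a scaffold of the ligase and a strong target of the unfolded protein response, stood at 84.4 and 86.5 in parental cells, 66.1 and 68.3 in the mutant-knockout line, 82.2 and 67.03 in the mutant degron line and 63.1 and 80.9 in the wildtype degron line, and passed the threshold nowhere. Besides SEL1L, the calls for EDEM3 and OS9 in the mutant-knockout line and for EDEM3, OS9 and SYVN1 in the wildtype degron line held with each library left out. Without the parental library with Shld, DERL1, EDEM1, EDEM3 and OS9 lost their calls in the mutant degron line, DERL1 in the mutant-knockout line and DERL1 and EDEM1 in the wildtype degron line (adjusted p of 0.06 to 0.14).

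The 3 subunits of the SEC61 channel moved apart. SEC61A1, which encodes the pore-forming alpha subunit, stood at 95.1 and 117 in parental cells, 159 and 174 in the mutant-knockout line, 163 and 155 in the mutant degron line and 181 and 181 in the wildtype degron line. SEC61B, the beta subunit, stood at 304 and 274 in parental cells, 242 and 261 in the mutant-knockout line, 245 and 236 in the mutant degron line and 173 and 189 in the wildtype degron line. SEC61G, the gamma subunit, stood at 580.0 and 477 in parental cells, 347 and 364 in the mutant-knockout line, 398 and 359 in the mutant degron line and 206 and 228 in the wildtype degron line. SEC61A1 was higher in all 3 lines (+0.65 ± 0.11, +0.59 ± 0.11 and +0.77 ± 0.11), and SEC61G was lower in all 3 (-0.56 ± 0.12, -0.48 ± 0.12 and -1.28 ± 0.12). SEC61B was lower in the wildtype degron line (-0.67 ± 0.10, adjusted p = 0.0011), with -0.20 ± 0.10 and -0.26 ± 0.10 in the mutant-knockout and mutant degron lines. In the mutant degron line the SEC61A1 and SEC61G calls were lost without its library with Shld (adjusted p = 0.059 and 0.074), and that of SEC61G also without the parental library with Shld (adjusted p = 0.13) or its own without Shld (adjusted p = 0.12). The calls in the other 2 lines held with each library left out.

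Transcript length moved with the differences between lines. Over 7970 genes with a GENCODE length, the Spearman correlation of length with the difference from parental cells was 0.22 in the mutant-knockout line, 0.21 in the mutant degron line and 0.31 in the wildtype degron line, as a description across genes, which are not independent replicates. In the wildtype degron line the median difference was -0.06 in the 10% of genes with the shortest transcripts (up to 697 bases) and +0.30 in the 10% with the longest (from 4517 bases). SEC61G and SEC61B, with median transcripts of 487 and 566 bases, are among the shortest members. P4HB, SIL1 and CANX, at 571, 581 and 592 bases, were higher in the wildtype degron line (+0.84, +0.92 and +0.62). DERL2, at 617 bases, was not called there (-0.30). Each length is the median over a gene's protein-coding transcripts, or over all where it has none. It need not be that of the main transcript and can understate it, so the lengths of single genes, P4HB, SIL1 and CANX among them, are uncertain. The length trend was then removed, a correction chosen after the relation to length was seen. It used these same lengths, so the corrected differences and calls of single genes are uncertain too. With the correction, SEC61G still differed by -1.12 and SEC61B by -0.54 in the wildtype degron line. UGGT1, at 5625 bases, differed by +0.83 where it had been +1.12. P4HB, SIL1 and CANX differed by +0.975, +1.061 and +0.749 with the correction. The corrected fit called 20 members in the mutant-knockout line, 19 in the mutant degron line and 25 in the wildtype degron line. In that fit, 18.4% of all genes were higher and 21.5% lower in the mutant-knockout line. The shares were 11.8% and 14.3% in the mutant degron line and 21.7% and 23% in the wildtype degron line. New calls in the mutant-knockout line were HYOU1 (+0.39) and SIL1 (+0.40), both higher, and DNAJB9 (-0.42), lower. No longer called were ATF6B and EDEM3 in the mutant degron line and ATF6, EDEM1 and PDIA6 in the wildtype degron line.

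**Figure D3:**
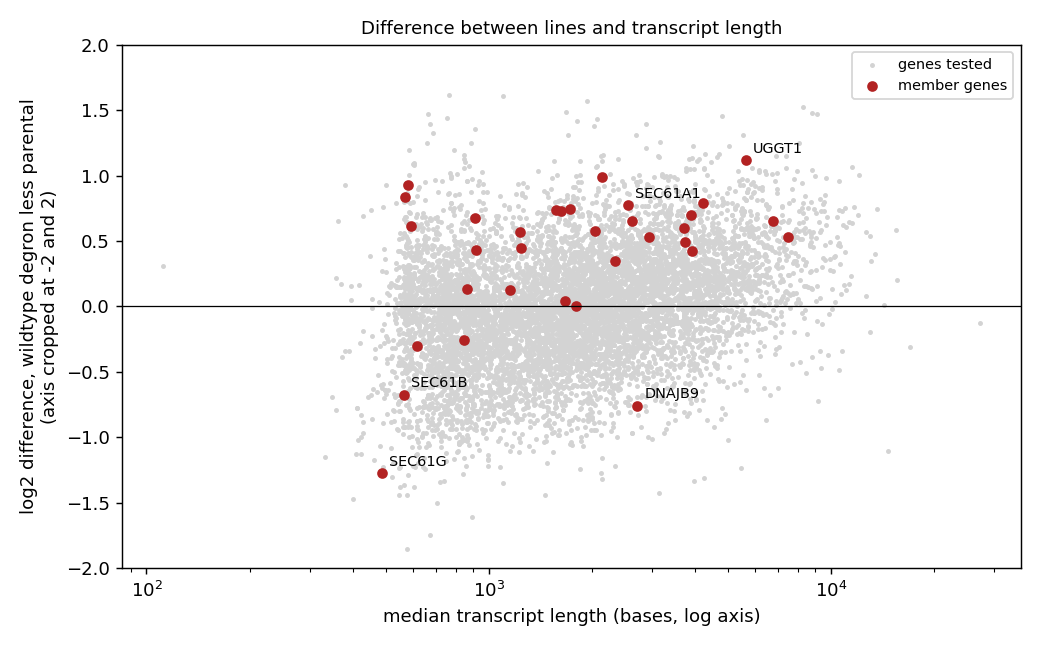
Each point is a gene, with its median transcript length on a log axis and its log2 difference between the wildtype degron line and parental cells, cropped at -2 and 2, and red points are member genes. The grey cloud tilts upward with length (Spearman 0.31 over 7970 genes), while the member genes lie above 0 except SEC61G, SEC61B, DNAJB9, DERL2 and HERPUD1.

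Withholding Shld from parental cells, which have no degron, went with higher ER folding values. Of 35 members 31 were above 0 and 4 below, with a median of +0.29 against +0.03 over all genes. The differences past 0.5 in size were those of SIL1 (+0.58, from 22.9 to 34.8) and OS9 (+0.55, from 52.8 to 78.0), where 0.337% of all genes were higher by that much and 1.63% lower. CRELD2 was next at +0.46, followed by PDIA3 (+0.45), P4HB (+0.45), DNAJB11 (+0.42) and HSPA5 (+0.42). The medians were +0.36 for the chaperones, +0.36 for the lectin cycle and +0.37 for the disulfide enzymes, and those below 0 were DNAJB9, DERL2, SEC61B and SEC61G. With 1 library on each side there is no test, and this pair's spread is what the withdrawal tests use. Its difference in ribosomal protein share was from 21.0% to 17.5%, and its correlation with transcript length was 0.21. Their part in the result was not tested.

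Withdrawal of Shld in the other lines changed no member past the threshold (limma, spread taken from the parental pair with 1 residual degree of freedom; on simulated data this fit called more unchanged genes than its threshold allows). In the mutant-knockout line 23 members were above 0 and 12 below, with a median of +0.06, none called (2.76% of all genes were) and 2 with an unadjusted p under 0.05. In the mutant degron line 6 were above and 29 below, with a median of -0.12, none called (0.0465%) and 0 under 0.05. In the wildtype degron line 30 were above and 5 below, with a median of +0.12, none called (0.093%) and 2 under 0.05. Over all genes the medians were +0.00, -0.01 and +0.02, and 4352, 4056 and 4630 of 8599 genes were above 0. A model of Shld over all 4 lines gave 29 members above 0 and 6 below, a median of +0.07, none called (0% of all genes, with 525 genes and 3 members at an unadjusted p under 0.05).

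The 3 largest differences of members on withdrawal did not pass the threshold in any line. In the mutant-knockout line these were PDIA5 (-0.41 ± 0.17, adjusted p = 0.27), EDEM1 (+0.35 ± 0.17) and EIF2AK3 (+0.34 ± 0.18). In the mutant degron line they were DNAJC3 (+0.34 ± 0.19), UGGT1 (-0.32 ± 0.18) and HERPUD1 (-0.29 ± 0.18), each at an adjusted p of 1.0. DNAJC3 led the wildtype degron line with -0.60 ± 0.19 (adjusted p = 0.49), from 11.03 to 6.95, followed by ATF6B (+0.40 ± 0.18) and HERPUD1 (+0.35 ± 0.18).

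The difference between withdrawals was tested directly. Wildtype less mutant degron was above 0 for 30 of 35 members, with a median of +0.22 against +0.02 over all genes, none called (0.244% of all genes were) and 2 under an unadjusted p of 0.05. DNAJC3 had the largest difference (-0.94 ± 0.26, adjusted p = 0.28), being higher without Shld in the mutant degron line and lower in the wildtype degron line, and HERPUD1 was next (+0.64 ± 0.25, adjusted p = 0.87). BiP differed by +0.36 ± 0.33 (adjusted p = 1). The mutant-knockout less mutant degron withdrawal was above 0 for 28 members, with a median of +0.16 against 0.00, none called (0.454%) and 1 under 0.05, EDEM1 (+0.62 ± 0.24, adjusted p = 0.38). These 2 differences share the mutant degron libraries, and over all genes 4595 and 4345 of 8599 were above 0. A p that misses the threshold does not show that the withdrawals acted alike.

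**Figure D4:**
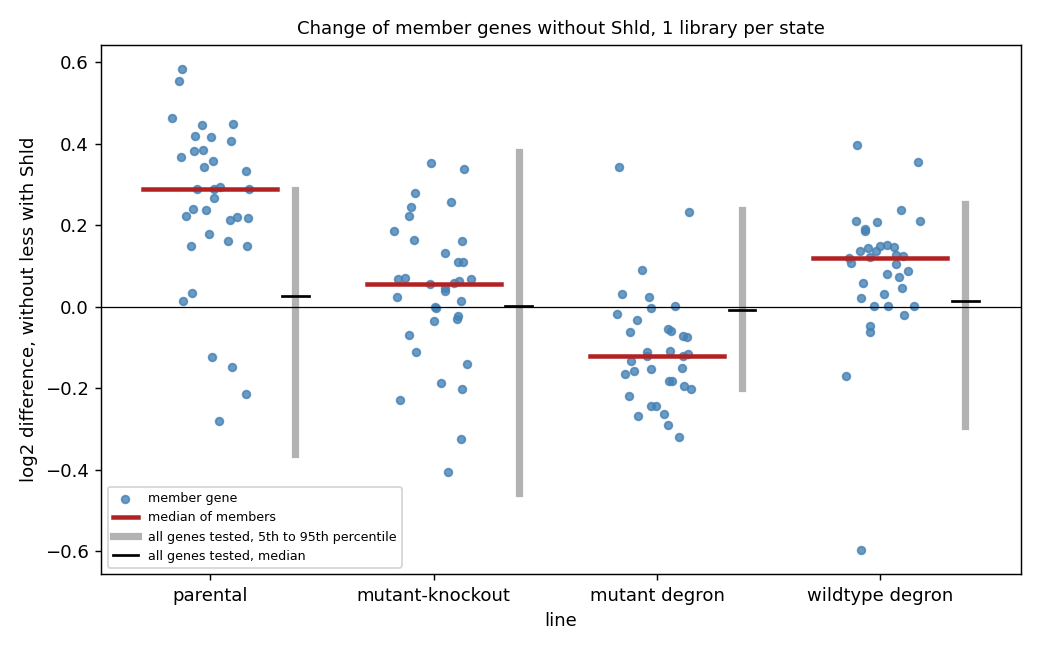
Blue points are the log2 differences of 35 member genes between the library without and the library with Shld of each line, red bars their medians, grey bars the 5th to 95th percentile of 8599 genes and black ticks the medians of those genes. The members' medians are +0.29 in parental cells, +0.06 in the mutant-knockout line, -0.12 in the mutant degron line and +0.12 in the wildtype degron line, and 1 point, DNAJC3 in the wildtype degron line, lies apart at -0.60.

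Values with and without a promoter match are set side by side as a description. In the wildtype degron line against parental cells, the 11 members with an ERSE, ERSE-II or UPRE match had a median of +0.35 (7 higher, 0 lower). The 22 tested members without one had +0.60 (16 higher, 3 lower), where 23.7% of all genes were higher and 24.5% lower. In the mutant-knockout line the medians were +0.01 (2 higher, 1 lower) and +0.30 (10 higher, 2 lower), against 18.7% and 21.4% of all genes. In the mutant degron line they were +0.36 (5 higher, 1 lower) and +0.39 (12 higher, 1 lower), against 12.4% and 14.4%. In the parental pair all 11 with a match were above 0, with a median of +0.36, against 18 of 22 and +0.25.

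Of the PERK branch and the integrated stress response, whose factors ATF4 and CHOP act downstream of PERK, 8 of 12 listed genes were tested, and ATF4 was not matched. DDIT3, which encodes CHOP, stood at 83.7 and 81.96 in parental cells, 28.9 and 38.1 in the mutant-knockout line, 51.7 and 45.6 in the mutant degron line and 58.5 and 75.6 in the wildtype degron line. CHOP transcripts were lower in the mutant-knockout line (-1.29 ± 0.14, adjusted p = 0.000165) and the mutant degron line (-0.76 ± 0.14, adjusted p = 0.00533), with -0.31 ± 0.14 in the wildtype degron line (adjusted p = 0.0985). TRIB3, a pseudokinase induced by ATF4 and CHOP, stood at 69.1 and 66.4 in parental cells, 24.2 and 26.6 in the mutant-knockout line, 24.7 and 23.6 in the mutant degron line and 64.8 and 74.5 in the wildtype degron line, and was lower in the mutant-knockout line (-1.38) and the mutant degron line (-1.45). NUPR1, a stress-induced chromatin protein, was also lower in both (-0.98 and -1.23). In all, 4 of the 8 were lower and 1 higher in the mutant-knockout line, 5 lower and 1 higher in the mutant degron line and 0 lower and 1 higher in the wildtype degron line. Over all genes 21.4% were lower and 18.7% higher, 14.4% and 12.4%, and 24.5% and 23.7% in these lines. Their medians were -0.74, -0.79 and +0.11, where those of the ER folding genes were +0.30, +0.45 and +0.57. CHAC1 stood at 33.8 and 31.5 in parental cells and at 10.7 and 29.6 in the mutant-knockout line. SESN2 stood at 9.62 and 10.7 in parental cells and at 6.68 and 11.7 in the mutant-knockout line. For both genes the mutant-knockout library with Shld was the lowest library. On withdrawal in the mutant-knockout line 2 of the 8 rose, where 0.977% of all genes did. These were CHAC1, which breaks down glutathione (+1.39 ± 0.17, adjusted p = 3.5e-05) and SESN2 (+0.73 ± 0.18, adjusted p = 0.0238), with a median of +0.42, and none was called in either degron line (medians -0.04 and +0.24). The SESN2 call was lost with quantile normalization (adjusted p = 0.059), with equal medians (adjusted p = 0.052), with all named genes of mean at least 1 (adjusted p = 0.082) and after the length correction (adjusted p = 0.12), and that of CHAC1 was kept in each. The DDIT3 call in the mutant degron line was lost without the parental library with Shld (adjusted p = 0.07) or its own without Shld (adjusted p = 0.056), and its call in the mutant-knockout line and those of TRIB3 and NUPR1 in both lines held with each library left out.

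Over the 3 lines together, lists for neighbouring steps of the secretory pathway held calls in both directions, apart from the other stress regulators. In the mutant degron line, only the translocation list among them held a lower call. There 7 of 13 N-glycosylation genes and 7 of 15 other ER folding enzymes were higher, above the share of all genes. These counts stand beside 18.7% higher and 21.4% lower of all genes in the mutant-knockout line, 12.4% and 14.4% in the mutant degron line and 23.7% and 24.5% in the wildtype degron line, and several are near those shares, such as the translocation genes in the mutant-knockout line. Of 13 tested N-glycosylation genes, 5 were higher and 1 lower in the mutant-knockout line, 7 and 0 in the mutant degron line and 8 and 3 in the wildtype degron line, where the glucosidase subunit PRKCSH led with +0.92 ± 0.09. Of 20 genes of translocation and signal peptide processing, 5 were higher and 3 lower, 4 and 1, and 4 and 8 in these lines, and in the wildtype degron line the signal recognition particle genes SRP9 (-0.94) and SRP14 (-0.69) were lower. Of 15 other ER folding enzymes, 6, 7 and 5 were higher and 2, 0 and 1 lower, led in the mutant-knockout line by the prolyl isomerase FKBP7 (+1.45 ± 0.18). Of 17 other degradation factors, 4, 4 and 5 were higher and 1, 0 and 5 lower. Of 10 other stress regulators, 2, 3 and 5 were higher and none lower. Of 21 genes of ER to Golgi transport, 5, 3 and 6 were higher and 3, 0 and 3 lower; the cargo receptor LMAN1 was higher in all 3 lines (+2.07, +1.31 and +0.93), and the coat subunit SEC24C was lower in the mutant-knockout line (-3.62 ± 0.24, adjusted p = 8.56e-06). Of 9 cytosolic chaperones, 3, 2 and 1 were higher and 0, 0 and 2 lower, with HSPA1B, an HSP70, higher in each line (+0.72, +0.52 and +0.70). Its near-identical copy HSPA1A can share its reads, so that value is uncertain, and in the mutant degron line the call was lost without the parental library with Shld (adjusted p = 0.14) or its own with Shld (adjusted p = 0.16). The LMAN1 call in the wildtype degron line was lost without the parental library with Shld (adjusted p = 0.089) or its own with Shld (adjusted p = 0.073).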

How the data were processed

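The authors deposited 1 table of FPKM values per locus, already rescaled so that the 75th percentile of each library is 10; that FPKM was the input is inferred from the values and from Cufflinks, which the submitters' processing notes name with TopHat and hg19. The sources used here give no version or annotation. Each group had 1 library and no label states separate cultures, so a p-value measures only how these libraries spread, which may be technical. The members and lists were chosen with earlier results of these data known.

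From these values, unnamed loci and small RNAs were left out, 1 locus was kept per symbol, and 8599 genes with a mean of at least 5 were fitted on log2(value + 1) with limma 3.58.1 (R 4.3.3), a scale that understates changes of low genes. Lines were set against parental cells, and Shld tested over 4 lines, in an additive model of line and Shld (3 residual degrees of freedom). Withdrawals were tested with each library on its own except the parental pair, which supplied the spread (1 residual degree of freedom). Adjustment over all genes was by Benjamini-Hochberg (threshold 0.05). The parental pair has no test, and a log2 difference of 0.5 counted as called. Both fits were tested on simulated data. Values in all libraries are given for each member past the threshold, for HSPA5, DDIT3 and XBP1 and for the 3 members with the largest difference in each Shld pair, and up to 3 genes are named from each other list. Alternatives changed the pseudocount, the filter, the scaling, the model and the libraries, and a correction for transcript length (GENCODE 29) was added after the data were seen.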

Additional observations from a re-analysis of the deposited data

How the results depend on the processing

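The absolute depth is unknown and each group has 1 library, which limits every test here. Counts of members called against parental cells stayed within 1.5 times of 17 (mutant-knockout), 21 (mutant degron) and 28 (wildtype degron) under pseudocounts of 0.1 and 5, a lower filter, quantile normalization, equal medians and the length correction. They dropped to 9 in the mutant-knockout line with its library with Shld alone. Leaving out each library in turn gave 10 to 20, 7 to 23 and 19 to 28, with 10, 8 and 19 without the parental library with Shld and 7 in the mutant degron line without its own library with Shld. Calls over all genes also dropped in these fits with lower counts, and whether the members dropped more than other genes was not tested. How many calls over all genes held with each library left out was not counted. The counts of member calls that held therefore have no share of all genes beside them. With the mutant-knockout library with Shld alone, members were called no more often than all genes. In the parental pair 2 members passed 0.5, and 4 after quantile normalization and after length correction. Of all genes, 0.337% were higher and 1.63% lower by that much. These shares were 0.407% and 1.38% after quantile normalization and 0.326% and 1.34% after length correction. No member was called on withdrawal, or in a difference of withdrawals, under any setting run. Over all genes the calls on withdrawal in the mutant-knockout line were 237, against 57 with a mean of at least 1, 90 after quantile normalization, 114 with equal medians and 6 after length correction; the cause was not tested. In the wildtype and mutant degron lines they were 8 and 4, against 1 and 0 after length correction. Wildtype less mutant degron gave 21 genes and mutant-knockout less mutant degron 39, and both gave 0 after length correction. Without 1 parental library the withdrawal fit has no residual degrees of freedom and was not run. No paired analysis was possible by replicate number, because each group has 1 library; the model of Shld over the 4 lines compares libraries within each line.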
